A study of Bos taurus with 90 samples.

Results

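The let-7 family is a group of microRNAs (miRNAs, small RNAs that guide silencing complexes to messenger RNAs) with a common seed, the short stretch near the 5′ end that pairs with targets. The first member was found as a switch of developmental timing in nematodes. In mammals the family rises as cells differentiate, the RNA-binding protein LIN28 holds back its maturation in immature cells, and HMGA2 and RAS genes are among its known targets. The members were taken by name from the miRNA tables of 5 cow tissues, as let-7a-5p, let-7b, let-7c, let-7d, let-7e, let-7f, let-7g and let-7i. These are 8 of the 388 miRNAs listed in any tissue, and all 8 were listed in every tissue and lay above 0 in all 90 libraries. The tables hold names and values and no sequences, so none are shown.

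The tissues were rumen epithelium, duodenum epithelium, jejunum epithelium, liver and mammary gland, collected at slaughter from 18 Chinese Holstein dairy cows in mid-lactation. The cows had eaten a diet based on rice straw, corn stover or alfalfa hay, with 6 libraries for each tissue and diet, so all groups share breed and lactation and each diet serves as the comparison for the other two. The study asked how miRNA levels differ among cattle tissues. The labels do not say which libraries come from the same cow, so the p-values treat the libraries as separate samples.

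Levels are given in CPM, the reads of a miRNA per 1000000 reads mapped to miRNAs in that library. The libraries held between 937556 and 15621501 mapped reads with a median of 5778304.5, and the least-read value of any member was 59 reads. There were 8 libraries under 3000000 reads, of which 4 were of mammary gland, 3 of liver and 1 of rumen. The liver label matched its defining miRNA: miR-122 lay between 8671 and 12721 CPM in liver, at no more than 48.5 CPM in mammary gland, and was not listed in the 3 gut tissues. The miR-205 and miR-31 of stratified epithelium summed to between 25814 and 54759 CPM in rumen, and the miR-200 group of epithelia to between 10598 and 67448 CPM in mammary gland. Intestinal miR-192, miR-194 and miR-215 summed to between 144396 and 411412 CPM in duodenum and jejunum, though liver also reached 195995 CPM. Each tissue, those labelled as epithelium included, also held miR-143 and miR-145 of smooth muscle, at between 70758 and 296908 CPM in sum. In such bulk tissue, fewer cells of a type and less RNA per cell cannot be told apart.

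Together the 8 members made up between 1.58% and 9.42% of the mapped miRNA reads of a library, with a median of 4.37%. In rumen the family held 6.22% ± 1.17 (SD, n = 18) of the reads, with a lowest value of 3.39%, a median of 6.27% and a highest of 8.02%. In mammary gland it held 6.04% ± 2.18 (n = 18), from 1.58% through a median of 6.39% to 9.42%. These were the highest family levels, and the mammary gland range enclosed that of rumen.

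Liver came next with 4.56% ± 0.730 (n = 18), from 3.37% through a median of 4.55% to 5.95%. Jejunum held 3.67% ± 0.607 (n = 18), from 2.33% through 3.72% to 4.72%. Duodenum held 3.34% ± 0.538 (n = 18), from 2.51% through 3.21% to 4.47%. The ranges of liver, jejunum and duodenum overlapped one another, while 17 of the 18 rumen libraries lay above every jejunum library and above every duodenum library. Against liver, 11 of 18 rumen libraries and 11 of 18 mammary gland libraries lay above the highest liver value. The rumen library below the rest was alfalfa hay replicate 1, at 3.39%.

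**Figure D1:**
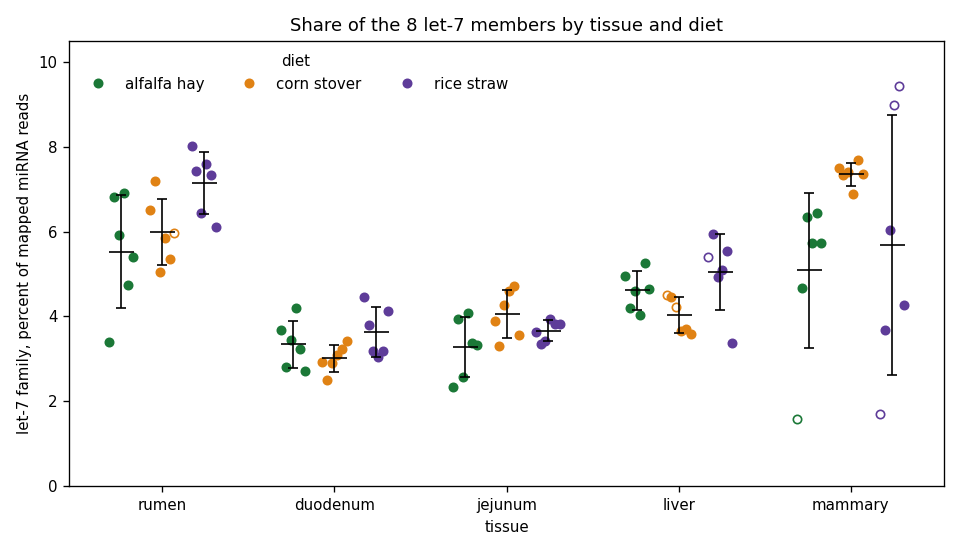
Sum of the 8 let-7 members as percent of mapped miRNA reads (y axis) in each of the 90 libraries, by tissue and diet, with 6 points a group and black bars for the mean ± SD. Open circles are libraries under 3000000 mapped reads. Rumen and mammary gland reach the highest values, and mammary gland spans 1.58% to 9.42%.

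A few libraries set the range in mammary gland. The 6 corn stover libraries lay close together, with a mean of 7.36% ± 0.269. The rice straw libraries 1 to 6 lay at 1.71%, 3.68%, 6.05%, 8.99%, 9.42% and 4.27%, and the alfalfa hay libraries 1 to 6 at 1.58%, 4.68%, 6.34%, 5.73%, 6.45% and 5.74%. Rice straw 1 and alfalfa hay 1, the lowest, and rice straw 4 and 5, the highest, were the 4 mammary gland libraries with under 3000000 reads. The 2 high ones also had the lowest sums of the 5 epithelial miRNAs of the miR-200 group, at 11549 and 10598 CPM, against 25610 to 67448 CPM in the other 16 mammary gland libraries. They were also the lowest of the tissue in the immune sum, at 1299 and 573 CPM, and in the endothelial sum, at 18410 and 10201 CPM. The part of depth or cell content in these values was not tested.

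Within the family, let-7a-5p and let-7f supplied most of the reads everywhere, and which of them led changed with the tissue. Their sum was 74.8% ± 2.11 of the family in liver, 69.1% ± 3.78 in mammary gland, 68.9% ± 1.71 in rumen, 67.2% ± 1.42 in duodenum and 67.1% ± 3.06 in jejunum (n = 18 each). In rumen, let-7a-5p made up 43.6% ± 1.76 and let-7f 25.3% ± 2.52 of the family. In liver the order was turned, with 25.3% ± 2.71 for let-7a-5p and 49.5% ± 4.50 for let-7f. Mammary gland resembled rumen in its order, at 39.8% ± 4.24 for let-7a-5p and 29.3% ± 3.16 for let-7f, while duodenum (30.2% and 37.0%) and jejunum (32.0% and 35.1%) had let-7f ahead on average.

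The ratio of let-7a-5p to let-7f, in which the scaling of a library cancels, separated the tissues more cleanly than the levels did. It ran from 1.34 to 2.25 in rumen with a median of 1.75, from 1.004 to 1.90 in mammary gland with a median of 1.43, and from 0.775 to 1.08 in jejunum with a median of 0.914. In duodenum it ran from 0.641 to 0.966 with a median of 0.811, and in liver from 0.404 to 0.740 with a median of 0.475. let-7a-5p exceeded let-7f in 18 of 18 rumen libraries and 18 of 18 mammary gland libraries, in 2 of 18 jejunum libraries, and in 0 of 18 libraries of duodenum and of liver. The rumen range lay wholly above those of jejunum, duodenum and liver, the mammary gland range wholly above those of duodenum and liver, and the jejunum range above that of liver. The neighbours in this order (rumen and mammary gland, mammary gland and jejunum, jejunum and duodenum, duodenum and liver) overlapped.

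**Figure D2:**
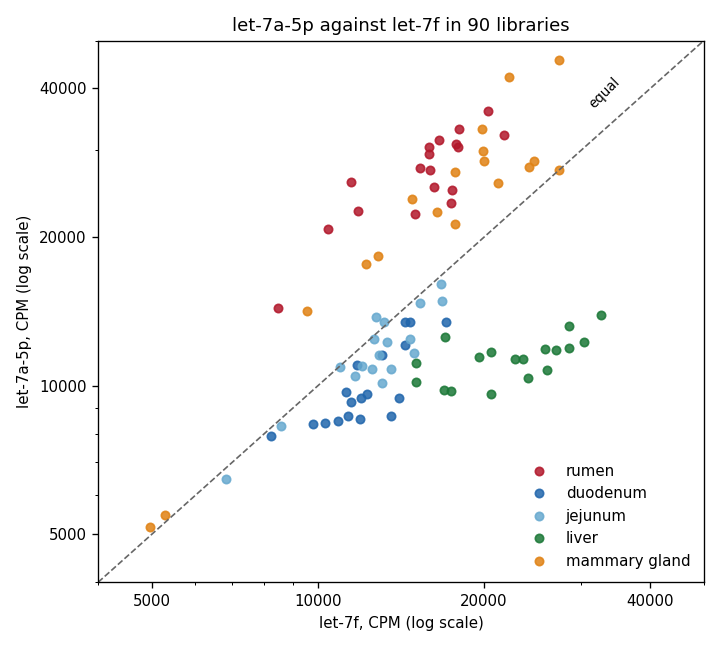
Level of let-7a-5p against let-7f, each in CPM on a log axis, with 1 point for each of the 90 libraries coloured by tissue and a line where the 2 are equal. All 36 points of rumen and mammary gland lie on the let-7a-5p side, and all 36 of duodenum and liver lie on the let-7f side.

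Make-up was tested by fitting each miRNA relative to the family total of its library (limma on log2 of the ratio, Benjamini-Hochberg adjustment over 289 miRNAs listed in every tissue). All 8 members differed among the 5 tissues, against 98.3% of all 289 miRNAs on this scale, so a call alone sets the members apart from nothing. For a miRNA outside the family the ratio also moves with the family total. The percentages over all miRNAs on this scale are therefore no background for a change in make-up. Between rumen and liver, 6 of 8 members passed (81.3% of all miRNAs), with a log2 difference in share of −0.97 ± 0.053 (SE) for let-7f (adjusted p = 1.06e-30), 0.79 ± 0.050 for let-7a-5p (adjusted p = 5.29e-27) and 1.06 ± 0.078 for let-7b (adjusted p = 1.38e-22). Between rumen and duodenum, 6 of 8 passed (79.9%), with let-7a-5p at 0.53 ± 0.050 (adjusted p = 6.47e-17) and let-7f at −0.55 ± 0.053 (adjusted p = 2.36e-16). The same scale gave 6 of 8 between rumen and jejunum (75.8%), 6 of 8 between duodenum and liver (86.9%) and 6 of 8 between jejunum and liver (85.8%). The largest member difference in share between liver and mammary gland, where 7 of 8 passed (70.2%), was 0.90 ± 0.097 for let-7d, followed by −0.86 ± 0.078 for let-7b.

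Duodenum and jejunum, the 2 neighbouring stretches of small intestine, were not told apart in make-up by this test. None of the 8 members passed in limma, against 7.27% of all miRNAs, with 1 member at an unadjusted p under 0.05, and the 95% intervals of the log2 differences in share reached from −0.33 to 0.31. Their member orders were the same, let-7f, let-7a-5p, let-7i, let-7g, let-7b, let-7d, let-7c and let-7e.

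**Figure D3:**
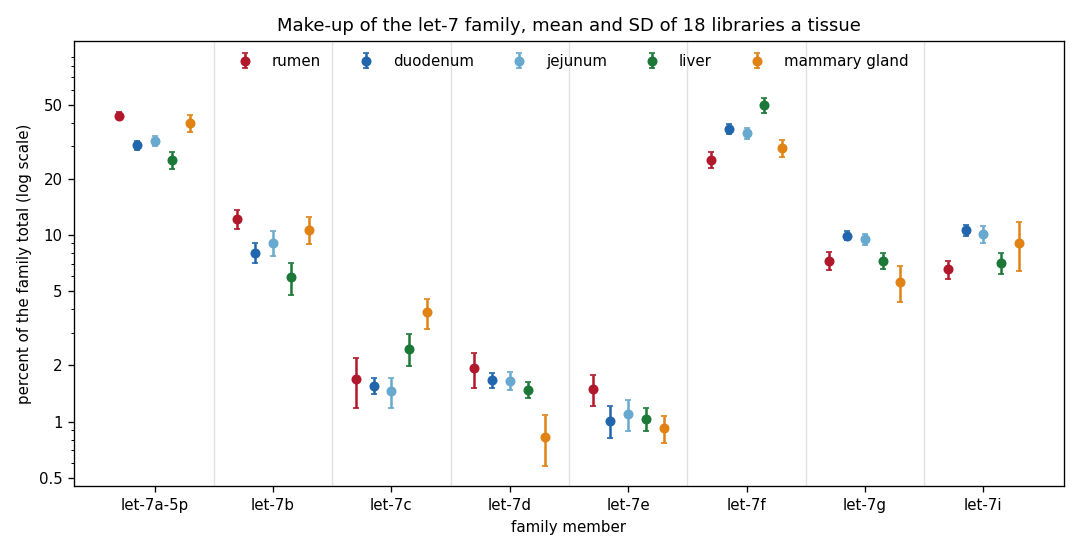
Share of each of the 8 members in the let-7 total (percent, y axis) in each tissue, as mean over 18 libraries with error bars for the SD. let-7a-5p and let-7f exchange places between rumen and liver, and let-7c and let-7d move apart in mammary gland.

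Among the 3 low members, let-7c and let-7d marked mammary gland in opposite directions. let-7c made up 3.85% ± 0.710 of the family in mammary gland, from 3.22% to 5.53%, against 2.45% ± 0.476 in liver, 1.69% ± 0.506 in rumen, 1.56% ± 0.146 in duodenum and 1.45% ± 0.268 in jejunum. The mammary gland range lay above those of the 3 gut tissues and overlapped that of liver, which reached 3.87%. The share of let-7d was 0.831% ± 0.250 in mammary gland, against 1.93% ± 0.410 in rumen, 1.67% ± 0.154 in duodenum, 1.66% ± 0.189 in jejunum and 1.48% ± 0.138 in liver. Every mammary gland library lay below every library of the other 4 tissues, although its highest value, 1.227%, nearly touched the lowest liver value of 1.229%.

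On the scale relative to the family, rumen and mammary gland differed in 8 of 8 members (76.8% of all miRNAs), jejunum and mammary gland in 8 of 8 (77.2%) and duodenum and mammary gland in 7 of 8 (75.4%). The log2 difference in the share of let-7c was −1.41 ± 0.097 for jejunum minus mammary gland (adjusted p = 2.55e-24), −1.22 for rumen minus mammary gland (adjusted p = 1.56e-20) and −0.65 for liver minus mammary gland (adjusted p = 6.12e-09). That of let-7d was 1.26 for rumen minus mammary gland (adjusted p = 1.91e-21) and 0.90 for liver minus mammary gland (adjusted p = 3.60e-14).

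The levels of single members add the height of the family to its make-up. Levels were tested with limma on log2(CPM + 1), with the adjustment over 289 miRNAs, and all 8 members differed among the 5 tissues, as did 99.3% of all miRNAs. let-7b (adjusted p = 3.05e-25) and let-7c (adjusted p = 6.67e-23) had the smallest adjusted p, and let-7i (adjusted p = 2.30e-05) and let-7g (adjusted p = 0.00127) the largest. Of 80 combinations of a member and a pair of tissues, 51 passed (63.8%), against 2060 of 2890 (71.3%) over all miRNAs.

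The most abundant member in rumen and mammary gland was let-7a-5p. It lay between 14376 and 35966 CPM in rumen with a median of 27450 CPM, and between 5177 and 45676 CPM in mammary gland with a median of 26410 CPM. In jejunum it lay between 6462 and 16108 CPM (median 11579), in liver between 9620 and 13920 CPM (median 11378), and in duodenum between 7927 and 13479 CPM (median 9438). All 18 rumen libraries lay above every liver and every duodenum library, and the range in mammary gland covered those of all the other tissues. The log2 difference was 1.42 ± 0.15 for rumen minus duodenum (adjusted p = 5.84e-15), 1.20 ± 0.15 for rumen minus jejunum (adjusted p = 6.12e-12) and 1.23 ± 0.15 for rumen minus liver (adjusted p = 1.42e-12), with 18 of 18 rumen libraries above the other tissue's mean each time. Against liver the value fell to 0.77 with trimmed mean (TMM) scaling and 0.51 with upper-quartile scaling, and still passed. Rumen minus mammary gland gave 0.29 ± 0.15, which did not pass (adjusted p = 0.0641) and was −0.03 with edgeR and with upper-quartile scaling. In CPM the differences of jejunum, liver and duodenum among themselves did not pass either. With upper-quartile scaling let-7a-5p was at −0.72 for duodenum minus liver and −0.52 for jejunum minus liver, and both passed.

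The highest let-7f levels were those of liver. There it lay between 15033 and 32612 CPM with a median of 23153 CPM, which placed it eighth by mean among 330 miRNAs listed in liver. The other medians were 18797 CPM in mammary gland, 16066 CPM in rumen, 12999 CPM in jejunum and 11962 CPM in duodenum, and the ranges overlapped. The log2 difference was −0.87 ± 0.14 for duodenum minus liver (adjusted p = 4.95e-08), −0.81 ± 0.14 for jejunum minus liver (adjusted p = 2.42e-07) and −0.53 ± 0.14 for rumen minus liver (adjusted p = 4.54e-04), with 18 of 18 libraries of the first tissue below the liver mean. For liver minus mammary gland it was 0.47 ± 0.14 (adjusted p = 0.00238). The direction of these 4 differences was the same under each other scaling tried, and their sizes with upper-quartile scaling were −1.40, −1.36, −1.25 and 0.87.

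**Figure D4:**
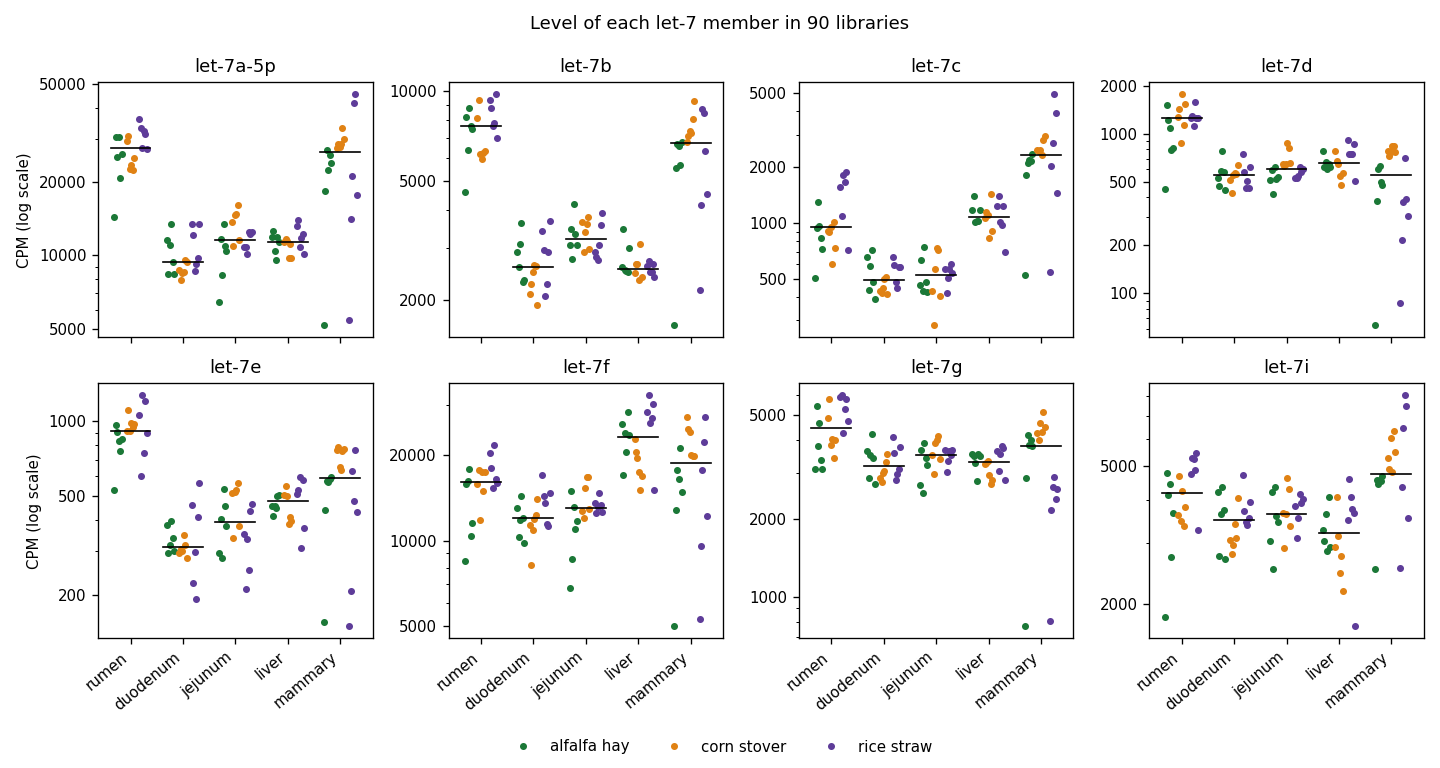
Level of each of the 8 let-7 members (CPM, log axis) in the 90 libraries by tissue, coloured by diet, with black lines for the tissue medians of 18 libraries. let-7a-5p is highest in rumen and mammary gland, let-7f in liver and let-7c in mammary gland.

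Of the 3 members at intermediate levels, let-7b followed let-7a-5p, while let-7g and let-7i moved little. let-7b lay between 4608 and 9792 CPM in rumen with a median of 7667 CPM, and between 1648 and 9316 CPM in mammary gland with a median of 6709 CPM. Its medians were 3198 CPM in jejunum, 2586 CPM in duodenum and 2554 CPM in liver, and all 18 rumen libraries lay above every library of these 3 tissues. The log2 difference was 1.50 ± 0.12 both for rumen minus liver (adjusted p = 2.65e-20) and for rumen minus duodenum (adjusted p = 4.19e-20), and 0.35 ± 0.12 for rumen minus mammary gland (adjusted p = 0.00719). The last fell to 0.13 with TMM, 0.13 with edgeR, 0.03 with upper-quartile scaling and 0.18 without the 8 libraries under 3000000 reads, and passed in none of them.

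let-7g had the narrowest span of tissue means, 1.38-fold from liver (3278 CPM) to rumen (4520 CPM), and its 18 rumen libraries ran from 3103 to 5990 CPM around a median of 4471 CPM. let-7i spanned 1.55-fold, from a mean of 3256 CPM in liver to 5037 CPM in mammary gland, where it ran from 2527 to 8044 CPM. The log2 difference of let-7i was −0.61 ± 0.12 for liver minus mammary gland (adjusted p = 3.24e-06) and −0.47 ± 0.12 for duodenum minus mammary gland (adjusted p = 2.03e-04), and the former was −0.21 and did not pass with upper-quartile scaling. For rumen minus liver, let-7g was at 0.44 ± 0.14 (adjusted p = 0.00248) and let-7i at 0.32 ± 0.12 (adjusted p = 0.00859) in CPM, but both turned to −0.28 and −0.39 with upper-quartile scaling and to −0.02 and −0.13 with TMM scaling.

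let-7c had the widest span, 4.53-fold from a mean of 520 CPM in duodenum to 2352 CPM in mammary gland. Its median was 2344 CPM in mammary gland (525 to 4964 CPM), 1085 CPM in liver (696 to 1434 CPM), 950 CPM in rumen (505 to 1884 CPM), 524 CPM in jejunum (282 to 747 CPM) and 492 CPM in duodenum (391 to 717 CPM). Mammary gland alfalfa hay replicate 1, at 525 CPM, was the lowest of its tissue, and the mammary gland range overlapped those of all other tissues. The log2 difference was −2.03 ± 0.16 for duodenum minus mammary gland (adjusted p = 1.99e-20), −2.02 ± 0.16 for jejunum minus mammary gland (adjusted p = 2.33e-20), −1.07 ± 0.16 for rumen minus mammary gland (adjusted p = 7.87e-09) and −0.94 ± 0.16 for liver minus mammary gland (adjusted p = 3.55e-07), with 18 of 18 libraries of the first tissue below the mammary gland mean in each. The value against liver was −0.54 with upper-quartile scaling and still passed.

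In CPM, let-7d and let-7e were highest in rumen, but the margin over liver depended on the scaling. Rumen minus liver was 0.79 for let-7d and 0.95 for let-7e in log2 CPM. These were 0.34 and 0.50 with TMM scaling, and 0.08 and 0.24 with upper-quartile scaling. let-7d had a median of 1262 CPM in rumen (453 to 1778 CPM), 656 CPM in liver, 599 CPM in jejunum, 556 CPM in duodenum and 551 CPM in mammary gland (62.9 to 846 CPM). The log2 difference for rumen minus mammary gland was 1.40 ± 0.18 (adjusted p = 5.75e-11), and 1.06 without the 8 libraries under 3000000 reads. For liver minus mammary gland let-7d gave 0.61 ± 0.18 (adjusted p = 0.00238) and for jejunum minus mammary gland 0.45 ± 0.18 (adjusted p = 0.0213), and without those libraries the values were 0.24 and 0.13 and did not pass. let-7e, the lowest member in 68 of 90 libraries, had a median of 911 CPM in rumen (531 to 1273 CPM) and 312 CPM in duodenum (193 to 563 CPM), with a log2 difference of 1.45 ± 0.15 (adjusted p = 1.02e-14).

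Counted over members, rumen stood above both intestinal tissues in level. For rumen minus duodenum 7 of 8 members passed and all 7 were higher in rumen (71.6% of all miRNAs passed, 44.6% as higher). The median log2 difference was 1.01 over the members against 0.19 over all miRNAs. For rumen minus jejunum 6 of 8 passed, all higher in rumen (73.4%, and 43.9% as higher), with medians of 0.95 and 0.19. For rumen minus mammary gland 4 were higher and 2 lower in rumen (82.7%), with medians of 0.32 and 0.34. With TMM, edgeR or upper-quartile scaling this became 3 higher and 3 lower, with member medians of 0.09, 0.05 and 0.002, while the split over all miRNAs went from 144 and 95 to 120 and 107, 121 and 110, and 112 and 111.

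Mammary gland stood above the intestine by smaller differences. For duodenum minus mammary gland 6 of 8 passed, all lower in duodenum (79.6%, and 38.4% as lower), with medians of −0.54 over members and 0.05 over all miRNAs. For jejunum minus mammary gland 7 of 8 passed, 6 of them lower in jejunum (78.5%, and 37.7% as lower), with medians of −0.38 and 0.05. For liver minus mammary gland 2 were higher and 4 lower in liver (69.2%), with medians of −0.36 and −0.12. This turned to 4 higher and 3 lower with upper-quartile scaling (medians of 0.04 and 0.26), and was 3 higher and 4 lower with TMM (medians of −0.13 and 0.10) and with edgeR (medians of −0.19 and 0.02). Over all miRNAs the split went from 87 higher and 113 lower to 138 and 82, 124 and 95, and 114 and 107 with these 3.

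The counts between liver and the 3 gut tissues depended on the scaling as well. For rumen minus liver 6 were higher and 1 lower in rumen (82.7% of all miRNAs passed), with medians of 0.62 over members and 0.47 over all miRNAs, and with upper-quartile scaling 2 were higher and 4 lower, the median over all miRNAs being −0.21. For duodenum minus liver 3 of 8 passed, all lower in duodenum (82.0%), and 8 of 8 were lower with upper-quartile scaling. For jejunum minus liver 1 was higher and 2 lower in jejunum (83.0%), and 8 of 8 were lower with upper-quartile scaling. Over all 289 miRNAs the split of higher and lower calls moved in the same way, from 157 and 82 to 108 and 139 for rumen minus liver and from 145 and 92 to 107 and 131 for duodenum minus liver. The shares within the family and the let-7a-5p to let-7f ratio do not change with scaling.

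For duodenum minus jejunum none of the 8 members passed in limma (10% of all miRNAs did). The differences ran from −0.31 to −0.01, their 95% intervals reached from −0.55 to 0.31, and 1 member, let-7b, had an unadjusted p under 0.05. edgeR on the reads recovered from the CPM called 1 member.

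**Figure D5:**
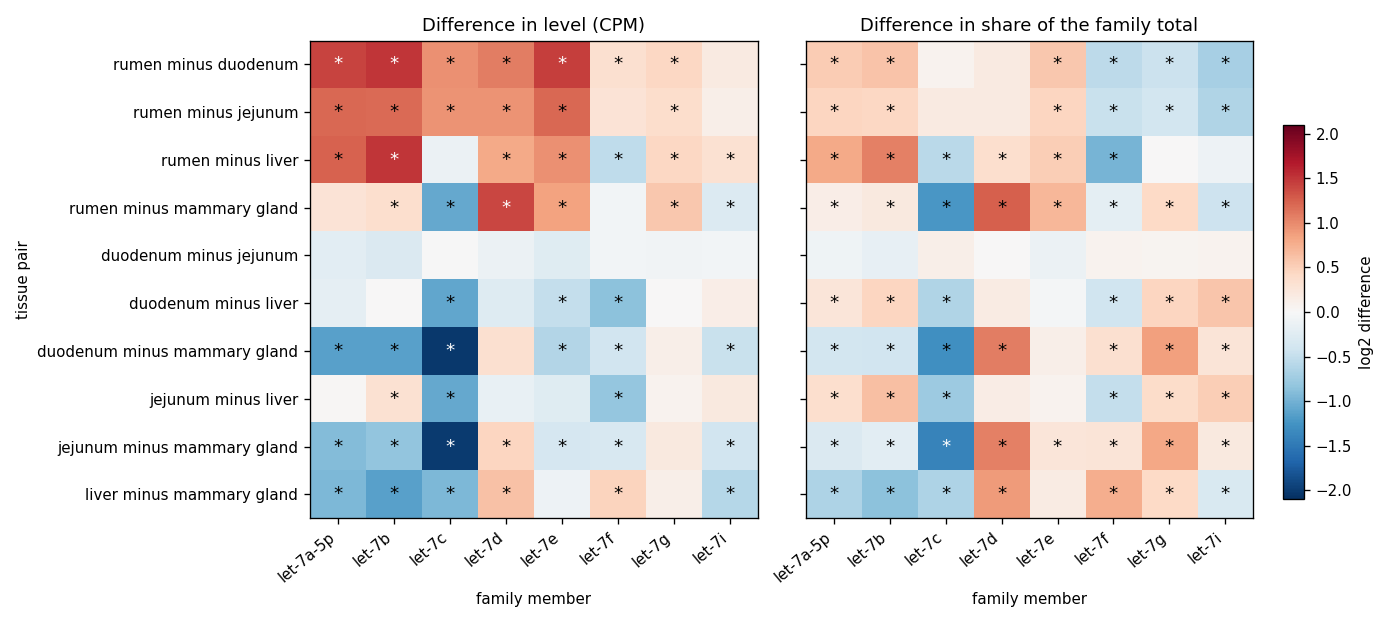
Log2 difference in level, first tissue minus second, for the 8 let-7 members (columns) in the 10 pairs of tissues (rows), with asterisks at a limma adjusted p under 0.05. The row for duodenum minus jejunum holds no asterisk, and let-7c for duodenum minus mammary gland is at −2.03.

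The members varied together across the libraries of a tissue. The median Pearson r over the 28 pairs of members was 0.90 in mammary gland, 0.77 in jejunum, 0.76 in duodenum, 0.58 in rumen and 0.54 in liver (18 libraries each), as a description of log2 levels that share library and scaling. All 28 pairs were positive except in liver, where 26 were, and the lowest was let-7b with let-7f at −0.21. The SD of a member's log2 level within a tissue had a median of 0.686 in mammary gland (0.733 over all listed miRNAs), 0.304 in rumen (0.436), 0.251 in jejunum (0.313), 0.249 in liver (0.394) and 0.239 in duodenum (0.314). The members lay close to the miRNAs averaging at least 1000 CPM in the tissue. Those had medians of 0.664 in mammary gland, 0.325 in rumen, 0.251 in jejunum, 0.263 in liver and 0.243 in duodenum. For these SDs and the correlations between members, the mean of each diet was first subtracted.

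In the RefSeq annotation of the cow assembly ARS-UCD2.0, used for neighbours alone, the 8 members matched 11 hairpin genes on 7 chromosomes. MIRLET7A-1, MIRLET7F-1 and MIRLET7D lie within 100 kb of one another, as do MIRLET7A-3 and MIRLET7B. MIRLET7A-2 lies near MIR100 and MIR125B-1, MIRLET7C near MIR99A and MIR125B-2, MIRLET7E near MIR99B and MIR125A, and MIRLET7F-2 near MIR98, while MIRLET7I has no other miRNA gene in that window. The mature names do not tell reads of the 3 let-7a genes apart, nor those of the 2 let-7f genes.

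Related miRNAs were described from a list of 8, namely the seed relatives miR-98 and miR-202, the cluster partners miR-99a, miR-99b, miR-100, miR-125a and miR-125b, and let-7a-3p, an opposite-arm product of let-7a hairpins. miR-202 was not listed, and all 7 others passed the test among tissues, as did 99.3% of all miRNAs. In CPM, the only scale used for these counts, rumen was higher than duodenum in 7 of 7 (44.6% of all miRNAs) and than jejunum in 7 of 7 (43.9%). Mammary gland was higher than jejunum in 7 of 7 (37.7%) and than liver in 6 of 7 (39.1%). The medians of miR-99b were close, at 1593 CPM in rumen, 1501 in duodenum and 1588 in jejunum, while its highest rumen library reached 14009 CPM. For miR-100 they were 850, 722 and 640 CPM, with a highest rumen library of 9339 CPM. miR-98 had means of 1612 CPM in rumen, 1155 CPM in mammary gland, 1019 CPM in duodenum, 776 CPM in jejunum and 512 CPM in liver. let-7a-3p had means of 173 CPM in rumen, 100.1 CPM in mammary gland, 68.7 CPM in liver, 67.7 CPM in duodenum and 66.2 CPM in jejunum, and its 18 rumen libraries lay above every library of the latter 3.

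Among 230 other miRNAs of at least 10 CPM on average, the family total was most like miR-320a (Pearson r = 0.80 over 90 libraries), followed by miR-193a-5p (0.77) and miR-423-3p (0.76). miR-320a was also the closest to let-7a-5p (0.88), let-7e (0.86) and let-7b (0.86). let-7c was closest to miR-99a-3p, from the neighbouring hairpin (0.93), let-7f to miR-423-5p (0.85), let-7d to miR-423-3p (0.83), let-7i to miR-1839 (0.74) and let-7g to miR-17-3p (0.73). These correlations pool the 5 tissues, and within tissues that of the family total with miR-320a ran from 0.40 in liver to 0.93 in mammary gland. With miR-193a-5p it was 0.87 in mammary gland and 0.54 in duodenum but 0.05 in jejunum, −0.03 in liver and −0.40 in rumen, and with miR-423-3p it ran from 0.26 in rumen to 0.98 in mammary gland.

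Diet was compared within each tissue, with 6 libraries against 6 and the adjustment over all miRNAs listed there. Of 120 combinations of a member, a tissue and a pair of diets, 5 passed (4.17%), against 265 of 4968 (5.33%) over all miRNAs. In duodenum and liver none of the 8 members passed across the 3 diets (limma, 0.0% of all miRNAs in each), with 0 members in duodenum and 1 in liver at an unadjusted p under 0.05, and edgeR called 0 in both.

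In jejunum, let-7d was higher with corn stover than with either other forage. It lay between 628 and 873 CPM with corn stover (median 655), between 420 and 624 CPM with alfalfa hay (median 527), and between 526 and 620 CPM with rice straw (median 564). The 6 corn stover libraries lay above all 12 others. Across the 3 diets let-7d passed (adjusted p = 0.0235) and no other member did, in a tissue where 23.8% of miRNAs passed.

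For corn stover minus alfalfa hay in jejunum 2 members passed, both higher with corn stover (22% of all miRNAs passed, 8.04% as higher and 14.0% as lower). The log2 difference was 0.41 ± 0.11 for let-7d (limma, adjusted p = 0.0124) and 0.45 ± 0.15 for let-7a-5p (adjusted p = 0.0367), with 6 of 6 corn stover libraries above the alfalfa hay mean for each. let-7a-5p lay between 10940 and 16108 CPM with corn stover and between 6462 and 13436 CPM with alfalfa hay, so these groups overlapped. For rice straw minus corn stover 1 member passed, let-7d at −0.32 ± 0.11 (adjusted p = 0.0423), where 28.6% of all miRNAs passed, 19.3% as higher and 9.23% as lower.

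Other miRNAs moved with corn stover in jejunum too. The 2 endothelial markers summed to between 8000 and 17708 CPM with corn stover, below every alfalfa hay library (18498 to 28030 CPM) and every rice straw library (19516 to 29441 CPM), and the smooth muscle sum had medians of 256990 CPM with corn stover, 205043 CPM with alfalfa hay and 187098 CPM with rice straw. Their part in the let-7 values was not tested. let-7a-5p no longer passed without any 1 of alfalfa hay 1 or 3 or corn stover 1, 3, 4 or 5, and the rice straw contrast of let-7d was lost without any 1 of alfalfa hay 5, corn stover 4, 5 or 6, or rice straw 1, 2 or 3. With TMM scaling, 6 members passed for corn stover minus alfalfa hay and 5 for rice straw minus corn stover. The split over all miRNAs turned with it, from 27 higher and 47 lower to 62 and 35 in the first contrast and from 65 and 31 to 36 and 65 in the second (64 and 33, and 36 and 71, with edgeR), while the member medians kept their sign and went from 0.24 to 0.42 and from −0.11 to −0.30.

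In mammary gland, let-7d and let-7g were lower with rice straw than with corn stover. let-7d lay between 87.5 and 702 CPM with rice straw (median 340) and between 730 and 846 CPM with corn stover (median 778). let-7g lay between 808 and 2894 CPM with rice straw (median 2494) and between 4024 and 5151 CPM with corn stover (median 4415). Neither pair of groups overlapped, while alfalfa hay ranged from 62.9 to 626 CPM for let-7d and from 767 to 4213 CPM for let-7g. The log2 difference was −1.44 ± 0.50 for let-7d (limma, adjusted p = 0.0394) and −1.10 ± 0.38 for let-7g (adjusted p = 0.0397), with 6 of 6 rice straw libraries below the corn stover mean.

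These 2 calls were made where 26.6% of all miRNAs passed, 25.1% as lower, and where the median log2 difference was −0.63 over all miRNAs and −0.64 over the members. With TMM, edgeR or upper-quartile scaling 0 members passed, the member median turned to 0.12, 0.26 and 0.28, and the split over all miRNAs went from 5 higher and 81 lower to 22 and 16, 40 and 17, and 31 and 10. No member passed in CPM either without any 1 of the 6 corn stover libraries or without rice straw 1 or 5. Without the 4 mammary gland libraries under 3000000 reads 5 members passed. Those libraries were rice straw 1, 4 and 5 and alfalfa hay 1, so only rice straw 2, 3 and 6 were left in that group. The share of all miRNAs passing in this setting is not given, so this count does not set the members apart. The smooth muscle sum lay between 130010 and 228169 CPM with rice straw, above every corn stover library (70758 to 127289 CPM), and the epithelial sum lay between 10598 and 45143 CPM with rice straw against 38600 to 58216 CPM with corn stover. Their part in the let-7 values was not tested. Across the 3 diets 0 members passed in mammary gland (limma, 3.72% of all miRNAs), with 2 at an unadjusted p under 0.05 and 0 by edgeR. Without the 4 libraries under 3000000 reads 5 passed, again with no share over all miRNAs beside it.

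In rumen the family was highest on average with rice straw, at 7.15% ± 0.728 of mapped reads against 5.99% ± 0.777 with corn stover and 5.53% ± 1.34 with alfalfa hay (n = 6 each). For rice straw minus alfalfa hay all 8 members had a log2 difference above 0, from 0.23 to 0.71, the latter for let-7c, whose libraries ran from 714 to 1884 CPM with rice straw and from 505 to 1298 CPM with alfalfa hay. None passed (limma, lowest adjusted p = 0.0922, 2.69% of all miRNAs passed, 1.19% as higher), although 6 had an unadjusted p under 0.05, and edgeR called 0. The median difference was 0.47 over members and 0.18 over all miRNAs in CPM, and 0.24 and −0.03 with upper-quartile scaling. Across the 3 diets 0 members passed in rumen (1.49% of all miRNAs), with 3 at an unadjusted p under 0.05 and 0 by edgeR.

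In the other 11 contrasts of diets, 0 members passed in limma and 0 by edgeR, and in limma 0.0% of all miRNAs passed in each. An unadjusted p under 0.05 in limma was reached by 1 member in each of 5 of these contrasts and by 0 in the other 6. Over all miRNAs, edgeR called 4 of 335 for corn stover minus alfalfa hay in rumen. It called 1 of 336 for rice straw minus alfalfa hay in jejunum.

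Whether the diet differences themselves varied between tissues was tested as an interaction over all 90 libraries. It passed for 3 members, let-7g (limma, adjusted p = 0.00191), let-7d (adjusted p = 0.00701) and let-7f (adjusted p = 0.0258), where 45.7% of 289 miRNAs passed. edgeR called 1 member, TMM scaling 2 and upper-quartile scaling 0.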

How the data were processed

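Small RNA was sequenced from 90 samples, 18 of each of 5 cow tissues. The authors extracted total RNA, filtered reads with CASAVA 1.8, aligned them to bovine miRBase hairpins with sRNAbench, allowing mismatches and multiple mapping, and deposited 1 table of CPM values (reads per 1000000 reads mapped to miRNAs) per sample. The study calls these values raw counts, but they are CPM, and all are whole multiples of 1 read within 0.1 read, which gave the depth. Reads that match several let-7 members could be shared among them, so the separate values of near-identical members are uncertain. A value of 3 reads equals 0.192 to 3.20 CPM, and this covers counting error only.

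Groups were taken from the labels. Levels were tested with limma 3.58.1 (intensity trend, R 4.3.3) on log2(CPM + 1), with Benjamini-Hochberg adjustment over all miRNAs of the fit at 0.05. Differences are on this scale, which slightly understates low values. The tissue and interaction fits used the 289 miRNAs listed in all tissues, and the diet fits all miRNAs listed in the tissue. A further fit used log2 of the ratio to the let-7 total. These fits over all 90 libraries took 1 spread for each miRNA over the 5 tissues, although mammary gland libraries scattered more. Their p-values can therefore be too small for mammary gland and too large between other tissues. The family total and the printed percentages carry no test of their own, and shares were tested through that ratio. Alternatives were other pseudocounts (0.1 and 5 CPM), a mean of at least 10 CPM, no filter, no trend, TMM and upper-quartile scaling, edgeR 4.0.16 on recovered reads, a replicate block, each library left out of the diet fits, and, chosen after seeing the depths, leaving out libraries under 3000000 reads. The fits were tested on simulated data.

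The members named are the 8 of the family, with the nearest other miRNAs by Pearson r. The members and all lists were chosen with earlier results of these data known. No sequences were used here.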

Additional observations from a re-analysis of the deposited data

Results flagged for a closer look

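Several measures in each of the 15 groups of 6 libraries were examined for a stray highest or lowest value, and 14 of 150 tests found one. Chance gives about 1 in 20 for separate tests, but these tests share libraries and are not separate. In mammary gland with alfalfa hay, replicate 1 (937556 mapped reads) lay below the other 5 libraries in the family total, at 1.58% against 4.68% to 6.45%, in let-7b at 1648 CPM against 5522 to 6765 CPM, in let-7c at 525 CPM against 1827 to 2365 CPM, in let-7e at 156 CPM against 441 to 596 CPM, and in let-7i at 2527 CPM against 4449 to 4702 CPM. In mammary gland with rice straw, replicate 1 (1875290 reads) was low in let-7g at 808 CPM against 2160 to 2894 CPM.

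In liver, the ratio of let-7a-5p to let-7f was high in 1 library of each diet, at 0.739 in alfalfa hay replicate 2 (others 0.420 to 0.482), 0.740 in corn stover replicate 5 (others 0.497 to 0.584) and 0.674 in rice straw replicate 6 (others 0.404 to 0.464). These 3 libraries held 6979560, 3042643 and 7684530 reads. Alfalfa hay replicate 1 of liver was high in let-7d at 780 CPM (others 602 to 665 CPM), and alfalfa hay replicate 4 of liver was low in let-7g at 2781 CPM (others 3288 to 3546 CPM).

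In rumen, let-7d was high in rice straw replicate 4 at 1577 CPM (others 1117 to 1287 CPM), let-7e was high in corn stover replicate 2 at 1107 CPM (others 910 to 983 CPM), and let-7i was low in rice straw replicate 6 at 3271 CPM (others 4767 to 5451 CPM). The differences between diets varied with the tissue for let-7d (limma interaction, adjusted p = 0.00701), let-7f (adjusted p = 0.0258) and let-7g (adjusted p = 0.00191). That test passed for 45.7% of all 289 miRNAs, so these calls do not set the members apart. edgeR called 1 member and upper-quartile scaling 0.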

How the results depend on the processing

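The tissue calls and make-up rest on 18 libraries a tissue, and the diet calls on 6, where 1 library could end a call. Changing the pseudocount or dropping the filter changed no call of a member between 2 tissues or 2 diets. A filter on a mean of at least 10 CPM added 1 such call. With TMM, edgeR and upper-quartile scaling in turn, the members called were 6, 6 and 4 for corn stover minus alfalfa hay in jejunum (2 in CPM), 5, 5 and 3 for rice straw minus corn stover there (1 in CPM, 0 with no intensity trend), 7, 7 and 4 for the 3 diets there (1 in CPM), 0, 0 and 0 for rice straw minus corn stover in mammary gland (2 in CPM), 1, 1 and 1 for duodenum minus jejunum (0 in CPM), and 7, 6 and 8 for duodenum minus liver (3 in CPM). For jejunum minus liver TMM gave 5 and upper-quartile 8 (3 in CPM), and for the interaction edgeR gave 1 and upper-quartile 0 (3 in CPM). Without libraries under 3000000 reads, 5 members were called for the 3 diets and 5 for rice straw minus corn stover in mammary gland, and 1 for duodenum minus jejunum. In mammary gland this left only rice straw 2, 3 and 6 in that group, and no share over all miRNAs is given for this setting. The causes were not tested.

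Of the 80 differences of a member between 2 tissues, 15 changed sign under at least 1 of the 3 scalings, and those that passed in CPM or under the scaling were as follows. For rumen minus liver let-7g went to −0.018 (TMM) and −0.28 (upper-quartile), and let-7i to −0.13 (TMM), −0.10 (edgeR) and −0.39 (upper-quartile). For duodenum minus liver let-7b went to −0.19 and −0.53 (TMM and upper-quartile), let-7g to −0.19, −0.16 and −0.53 (TMM, edgeR and upper-quartile) and let-7i to −0.39 (upper-quartile). For jejunum minus liver let-7a-5p went to −0.52, let-7b to −0.24 and let-7i to −0.35 (upper-quartile), and let-7g to −0.17 (TMM) and −0.47 (upper-quartile). For liver minus mammary gland let-7e went to 0.29 (upper-quartile). Among changes that passed in neither, let-7a-5p went to −0.21 (TMM) and −0.16 (edgeR) for jejunum minus liver and to −0.03 (edgeR and upper-quartile) for rumen minus mammary gland, and let-7i went to −0.07 and −0.09 (TMM) for rumen minus duodenum and rumen minus jejunum. Without the most abundant other miRNA in the total, the family held 7.53% in rumen (without miR-143), 4.48% in duodenum (without miR-192) and 4.69% in jejunum (without miR-143).

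Leaving out each library in turn gave 1 to 3 members for corn stover minus alfalfa hay in jejunum, 0 to 2 for rice straw minus corn stover and 0 to 2 for the 3 diets there, 0 to 3 for rice straw minus corn stover and 0 to 2 for the 3 diets in mammary gland, 0 to 1 for rice straw minus alfalfa hay in rumen, and 0 to 1 for the 3 diets and for rice straw minus corn stover in liver. The calls across the 3 diets of jejunum were lost without corn stover 4 or 5. In liver the 1 call was let-7f, without rice straw 6.

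The labels do not say that a replicate number marks a cow. Libraries of the same diet and number in 2 tissues had a mean correlation of 0.0687, with 82 of 180 over 0.1. Libraries of the same diet and other numbers had a mean of −0.0138. With 6 numbers to choose from each time, 54 of 180 were best matched to their own number. Numbers shared between diets of a tissue had a mean of 0.0526. These values do not settle whether a number marks a cow. The highest of the 10 pairs of tissues was duodenum with jejunum, at a mean of 0.197 with 14 of 18 over 0.1 and 11 of 18 best matched to their own number. With the number as a replicate block, 2 members were called for the 3 diets in mammary gland, against 0 without it. Among differences of a member between 2 tissues (level or share) or 2 diets, 3 gained a call with the block. The count for duodenum minus jejunum stayed at 0. Merging members that differ at 1 position was not run, as no sequences were at hand.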

Other observations

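The ratio of the 2 arms of the let-7a hairpin, let-7a-5p to let-7a-3p, had medians of 211 in mammary gland, 174 in jejunum, 161 in liver, 152 in rumen and 147 in duodenum (18 libraries each). In mammary gland, rice straw replicates 4 and 5 stood apart with ratios of 1074 and 3322, while the other 16 libraries lay between 90 and 330. In rice straw replicate 5 the let-7a-3p level of 13.7 CPM rested on 21 reads of 1527304. These 2 libraries also had the highest family totals of all 90, at 8.99% and 9.42% of mapped reads.

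The share of miR-98 in the sum of let-7 and miR-98 was 3.00% ± 0.707 in duodenum, 2.46% ± 0.557 in rumen, 2.09% ± 0.475 in jejunum, 1.93% ± 0.565 in mammary gland and 1.13% ± 0.258 in liver (SD, n = 18). Relative to the let-7 total, miR-98 was higher in duodenum than in jejunum by a log2 difference of 0.53 ± 0.12 (limma, adjusted p = 0.00247), a pair of tissues in which none of the 8 let-7 members passed on that scale.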
